A study of Mus musculus with 5 samples.

Results

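The B7 family and checkpoint ligands described here are 7 mouse genes, *Cd80*, *Cd86*, *Icosl*, *Cd274*, *Pdcd1lg2*, *Cd276* and *Havcr2*, of 18820 named genes measured in the liver. They were picked by name with the CSF1-Fc against PBS values of the same 5 arrays already known. Their own levels and changes are therefore a description, and limma calls counted among them are not read as a test. The 3 CSF1-Fc livers came from adult C57BL/6 mice that received CSF1-Fc at 1 mg/kg subcutaneously on 4 consecutive days before sacrifice on day 5. The 2 PBS livers came from adult C57BL/6 mice given phosphate-buffered saline (PBS) on the same days. CSF1-Fc is pig macrophage colony-stimulating factor carrying an immunoglobulin tail (hinge to CH3) of the same species, so the mice received a foreign protein for a short time. RNA of whole liver, 1 mouse per array, was hybridized to 1-colour Affymetrix Mouse Gene 1.1 ST arrays. Values are log2 of the authors' normalized intensity, each gene is represented by its brightest row, and a change is the CSF1-Fc mean minus the PBS mean on that log2 scale, with the standard error of the limma fit.

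B7 ligands are surface proteins with which antigen-presenting cells steer T cells. CD80 and CD86 deliver the costimulatory signal through CD28 and are also bound by the inhibitory receptor CTLA4, while ICOSL engages ICOS on activated T cells. CD274 (PD-L1) and PDCD1LG2 (PD-L2) bind the inhibitory receptor PD-1, which *Pdcd1* encodes. HAVCR2 (TIM-3) is an inhibitory receptor of T cells and myeloid cells, and Kupffer cells, the resident macrophages of the liver, carry several of these ligands.

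The family did not move as a block. Transcripts of *Cd86*, *Cd80* and *Cd274* were higher in CSF1-Fc livers, with changes of 3.00, 1.86 and 1.09. Changes of the other 4 genes were 0.89 for *Icosl*, 0.41 for *Havcr2* and -0.20 each for *Pdcd1lg2* and *Cd276*. The median change of all 7 genes was 0.89, against -0.08 over all named genes. Of the 7 genes, 3 passed an adjusted p of 0.05 in the limma fit over all rows, all higher, where 8.34% of named genes were called higher. Leaving out PBS replicate 1 made the number 2, and leaving out CSF1-Fc replicate 2 made it 4. All 3 CSF1-Fc arrays lay above both PBS arrays for 5 of the genes and below both for the other 2, and this held for 18.2% and 29.3% of named genes (15.8% and 25.6% of all rows). Over the array, 3.95% of named genes were called lower, and of all 35556 rows 5.77% were called higher and 3.19% lower, 8.96% together. Because the genes were picked with these values known, nothing is read from either count.

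**Figure D1:**
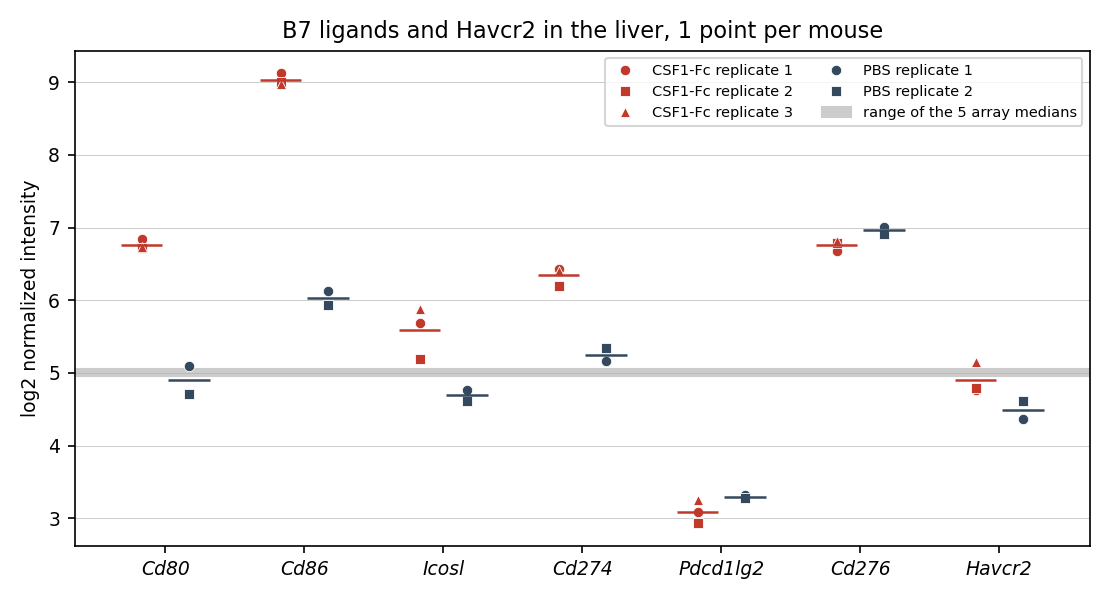
Each point is 1 mouse, the vertical axis is log2 normalized intensity, red points are CSF1-Fc livers, dark points PBS livers and short lines group means. The grey band spans the medians of the 5 arrays, 4.96 to 5.05. *Cd86* shows the widest separation, with group means of 9.03 and 6.03, and *Pdcd1lg2* lies lowest, near 3.

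*Cd86* encodes the B7 ligand that monocytes and macrophages carry at rest. Its log2 intensity was 9.12, 9.01 and 8.97 in the CSF1-Fc livers, against 6.12 and 5.94 in the PBS livers. The nearest arrays of the groups lay 2.85 apart. The mean was 9.03 ± 0.08 (SD, n = 3) in CSF1-Fc livers and 6.03 ± 0.13 (SD, n = 2) in PBS livers, a change of 3.00 (standard error 0.13), or 8.02-fold. Only 102 of the 18820 named genes had a larger change. Leaving out each mouse in turn gave 2.91 to 3.10.

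*Cd80*, whose product binds CTLA4 with the higher affinity of the pair, was at 6.84, 6.71 and 6.73 in CSF1-Fc livers, against 5.10 and 4.71 in PBS livers. Both PBS values sat near the array medians. The mean was 6.76 ± 0.07 (SD, n = 3) in CSF1-Fc livers and 4.90 ± 0.28 (SD, n = 2) in PBS livers, and the change was 1.86 (standard error 0.16), or 3.62-fold. A second, dimmer row of *Cd80* was at 5.98, 5.87 and 5.83 in CSF1-Fc livers, against 4.54 and 4.73 in PBS livers. That row also showed no overlap, with a change of 1.26 (standard error 0.13), so the size of the *Cd80* change depends on the row. The change of *Cd86* exceeded that of *Cd80* by 1.15 on the log2 scale. The 250 bases before the *Cd80* start in RefSeq (GRCm38.p6, chr16:38458683-38458932 on the + strand) are shown because *Cd80* had the second largest change, with motif matches in capitals.
Cd80: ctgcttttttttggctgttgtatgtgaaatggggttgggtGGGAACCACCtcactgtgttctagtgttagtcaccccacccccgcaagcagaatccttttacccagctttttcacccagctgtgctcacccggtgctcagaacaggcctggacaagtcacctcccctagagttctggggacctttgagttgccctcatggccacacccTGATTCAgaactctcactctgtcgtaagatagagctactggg
The search covered 6 short motifs on both strands: GAGGAAGT (PU.1 core), GAAA, any 2 bases and GAAA (interferon-stimulated response element core), TTCNNNGAA (STAT), TGANTCA (AP-1), TTGCNNAA (C/EBP) and GGGA, any 4 bases and CC (NF-kB). Of 32851 promoter windows of this length, 2.44%, 2.98%, 7.02%, 6.75%, 9.56% and 17.6% held a match, in that order. The *Cd80* window held TGATTCA, an AP-1 match 42 to 36 bases before the start, and GGGAACCACC, an NF-kB match 210 to 201 bases before it, and these do not overlap. Windows were found for 6 of the 7 genes, all but *Cd86*. A match describes letters only.

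*Icosl* encodes the ligand of ICOS, which B cells, macrophages and endothelial cells carry. It was at 5.69, 5.19 and 5.88 in CSF1-Fc livers, against 4.77 and 4.62 in PBS livers. The CSF1-Fc mice differed from one another more than for any other of the 7 genes, with CSF1-Fc replicate 2 nearest to the PBS livers. The mean was 5.59 ± 0.36 (SD, n = 3) in CSF1-Fc livers and 4.69 ± 0.11 (SD, n = 2) in PBS livers. The change was 0.89 (standard error 0.22), or 1.86-fold. *Icosl* was not among the genes called higher, and how many of the 7 were called depended on the processing. Without CSF1-Fc replicate 2 the change was 1.09, and without CSF1-Fc replicate 3 it was 0.75. All values lay within about a log2 unit of the array medians.

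The inhibitory ligand *Cd274* was higher, and its neighbour *Pdcd1lg2* was dim in every liver. *Cd274* was at 6.43, 6.19 and 6.40 in CSF1-Fc livers, against 5.16 and 5.34 in PBS livers. The groups did not overlap, and their nearest arrays lay 0.85 apart. Its mean was 6.34 ± 0.13 (SD, n = 3) in CSF1-Fc livers and 5.25 ± 0.13 (SD, n = 2) in PBS livers, a change of 1.09 (standard error 0.14), or 2.13-fold. *Pdcd1lg2*, the other ligand of PD-1, was at 3.09, 2.93 and 3.25 in CSF1-Fc livers, against 3.31 and 3.27 in PBS livers. These values lie far under the array medians, and the gap between the groups was 0.03. The change was -0.20 (standard error 0.14), and a real change in a transcript this dim could be missed. The genes are next to each other on mouse chromosome 19 in the RefSeq gene order, and their windows (GRCm38.p6, chr19:29367188-29367437 on the + strand and chr19:29410669-29410918 on the + strand) are shown because the neighbours differed.
Cd274: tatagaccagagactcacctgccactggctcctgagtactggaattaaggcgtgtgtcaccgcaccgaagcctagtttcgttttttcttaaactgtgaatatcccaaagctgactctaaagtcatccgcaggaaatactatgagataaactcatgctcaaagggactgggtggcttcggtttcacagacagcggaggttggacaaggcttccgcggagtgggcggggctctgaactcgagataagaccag
Pdcd1lg2: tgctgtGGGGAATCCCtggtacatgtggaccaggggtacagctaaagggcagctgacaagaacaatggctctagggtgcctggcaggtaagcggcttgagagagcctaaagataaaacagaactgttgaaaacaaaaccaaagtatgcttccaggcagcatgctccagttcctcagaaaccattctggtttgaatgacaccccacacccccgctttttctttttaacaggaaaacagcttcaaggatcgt
The *Cd274* window held none of the 6 motifs. The *Pdcd1lg2* window held an NF-kB match on the opposite strand, read as GGGGAATCCC on the strand shown, 244 to 235 bases before the start. No match overlapped another in either window.

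*Cd276* (B7-H3) encodes a B7 homologue found on many cell types outside the blood lineage. It was at 6.68, 6.79 and 6.82 in CSF1-Fc livers, against 7.01 and 6.91 in PBS livers. The nearest arrays lay 0.09 apart. The mean was 6.76 ± 0.07 (SD, n = 3) in CSF1-Fc livers and 6.96 ± 0.08 (SD, n = 2) in PBS livers, a change of -0.20 (standard error 0.13). A second row was at 5.41, 5.23 and 4.98 in CSF1-Fc livers, against 5.63 and 5.49 in PBS livers, with a change of -0.35 (standard error 0.17). Neither row showed a rise. Markers of hepatic stellate cells had a median change of -0.40, and their part in these values was not tested. With arrays centred on liver secreted proteins the change of *Cd276* was -0.04.

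*Havcr2* was at 4.77, 4.79 and 5.15 in CSF1-Fc livers, against 4.37 and 4.62 in PBS livers. Most of its values were under the array medians. The mean was 4.90 ± 0.22 (SD, n = 3) in CSF1-Fc livers and 4.49 ± 0.18 (SD, n = 2) in PBS livers, a change of 0.41 (standard error 0.17), or 1.33-fold, and the nearest arrays lay 0.15 apart. The last 250 bases before its start (GRCm38.p6, chr11:46454681-46454930 on the + strand) are shown because this window alone of the 6 held a PU.1 core, the motif of a factor that myeloid cells depend on.
Havcr2: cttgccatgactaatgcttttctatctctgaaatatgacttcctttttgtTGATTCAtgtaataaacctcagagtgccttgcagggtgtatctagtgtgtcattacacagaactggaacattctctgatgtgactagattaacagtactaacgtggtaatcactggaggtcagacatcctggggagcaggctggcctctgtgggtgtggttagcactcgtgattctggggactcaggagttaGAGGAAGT
The PU.1 match GAGGAAGT spans the bases 8 to 1 before the start, and an AP-1 match, TGATTCA, lies 200 to 194 bases before it, with no overlap. The *Icosl* window held an NF-kB match, GGGATGGGCC, and the *Cd276* window held no match.

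Among the receptors of the B7 ligands, *Icos* stood apart. It was at 8.35, 8.30 and 8.06 in CSF1-Fc livers, against 5.42 and 4.89 in PBS livers. *Icos* rose by 3.08 (standard error 0.20, limma adjusted p = 0.00045), or 8.47-fold. This call passed in all 15 alternatives, with adjusted p between 5.31e-06 and 0.0489. Of 5 receptor genes *Icos* alone was called, where 12.3% of named genes were called in either direction. The receptor genes *Cd28*, *Ctla4* and *Pdcd1* were dim in all livers. Means were 4.01 in CSF1-Fc livers and 4.12 in PBS livers for *Cd28*, 3.00 and 3.12 for *Ctla4*, and 4.20 and 4.24 for *Pdcd1*. Their changes were -0.11, -0.12 and -0.05 (limma adjusted p = 0.752, 0.71 and 0.893), and the sign of each turned with arrays centred on liver secreted proteins. *Cd28* and *Ctla4* lie near *Icos* on chromosome 1.

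T cell markers did not move with *Icos* as a list. Of 11 measured, 1 was higher and 10 did not pass, with a median change of 0.16. Called higher were 8.34% of named genes. Their summed intensity was 304 to 359 in CSF1-Fc livers and 264 to 279 in PBS livers, and 7 had a mean log2 under 5 in both groups. The T cell receptor subunit *Cd3g* rose by 1.45 (standard error 0.15, limma adjusted p = 0.00222), while its partners *Cd3e* and *Cd3d* were at 0.25 and 0.01 (adjusted p = 0.293 and 0.98). *Cd4* was at -0.51 (adjusted p = 0.0763). *Thy1*, *Cd2* and *Cd8b1* were at 0.66, 0.47 and 0.32 and did not pass either. All CSF1-Fc arrays lay above both PBS arrays for 5 of the 11 markers and below both for 1, *Cd4*. Among named genes these shares were 18.2% and 29.3%. *Icos* lacks a second row, and the part of any cell type in its rise was not tested. The *Cd3g* call passed all alternatives but the one with no variance moderation (0.0604).

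**Figure D2:**
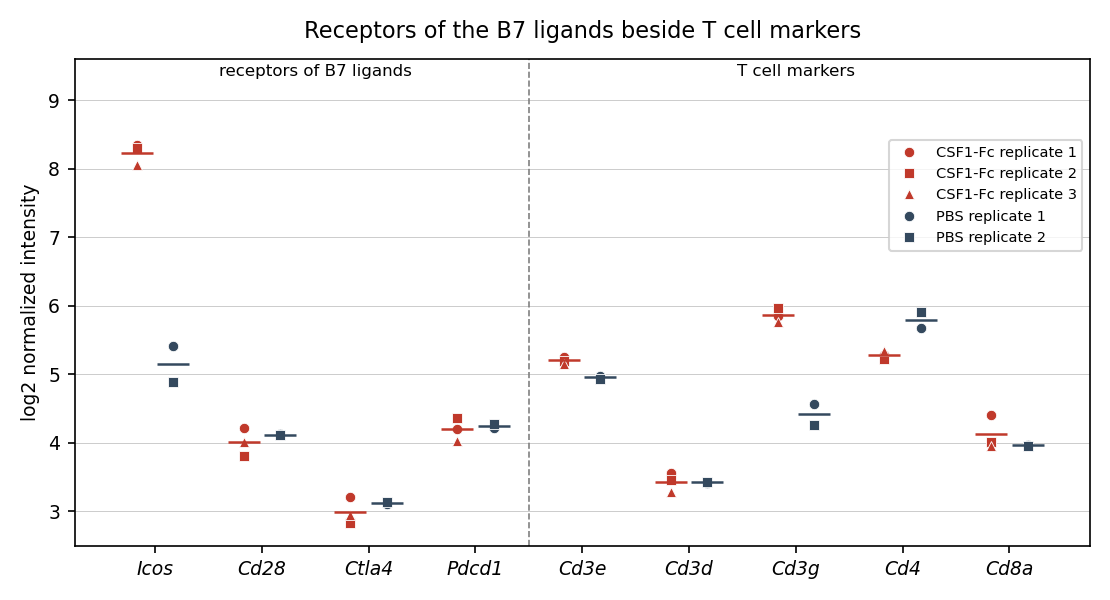
Log2 normalized intensity of 4 receptors of the B7 ligands and 5 of the 11 T cell markers, with 1 point per mouse. CSF1-Fc is red, PBS is dark and group means are lines. *Icos* separates the groups at 8.24 and 5.15, while *Cd28*, *Ctla4* and *Pdcd1* stay between 2.83 and 4.36 in all 5 livers.

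Markers of several blood cell types moved in the same livers. All 12 macrophage markers were higher, with a median change of 2.49 and a summed intensity of 17281 to 18158 in CSF1-Fc livers and 4009 to 4060 in PBS livers. Of 9 Kupffer cell markers 7 were higher (median 1.81), of 6 monocyte markers 6 (median 3.04) and of 7 neutrophil markers 6 (median 3.21). Of 12 dendritic cell markers 2 were higher (median 0.35), of 7 B cell markers 3 (median 0.43) and of 8 NK cell markers 1 (median 0.48). Beside these counts, 8.34% of named genes were called higher and 3.95% lower. Summed intensities in CSF1-Fc and in PBS livers were 22153 to 22629 and 7093 to 8250 for Kupffer cells, 2112 to 2528 and 166 to 197 for monocytes and 1412 to 1620 and 148 to 206 for neutrophils. For dendritic cells they were 521 to 618 and 365 to 381, for B cells 450 to 460 and 200, and for NK cells 253 to 491 and 130 to 156. No marker was at 0 on any array. Of the 8 markers in each of the other lists, 1 sinusoidal endothelial and 1 stellate cell marker were lower (medians -0.34 and -0.40). The endothelial marker was *Clec4g*, which is also among the other checkpoint genes below. Summed intensities were 3511 to 3730 in CSF1-Fc livers and 4489 to 4802 in PBS livers for endothelium, and 1027 to 1312 and 1630 to 1642 for stellate cells. Of 22 genes of liver secreted proteins none passed the test (median -0.11, sums of 131789 to 145235 in CSF1-Fc livers and 148913 to 149781 in PBS livers). Whole liver was measured, so more cells of a type and more RNA per cell cannot be told apart, and the part of these cell types in the changes of the B7 genes was not tested. *Cd86* changed by more than the macrophage median and by less than the monocyte and neutrophil medians, 3.04 and 3.21. *Cd80*, *Cd274* and *Icosl* changed by less than each of these medians. Against the Kupffer cell median, 1.81, *Cd80* was about level at 1.86, and *Cd274* and *Icosl* were lower. Each of these genes changed by more than the dendritic, B and NK cell medians.

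**Figure D3:**
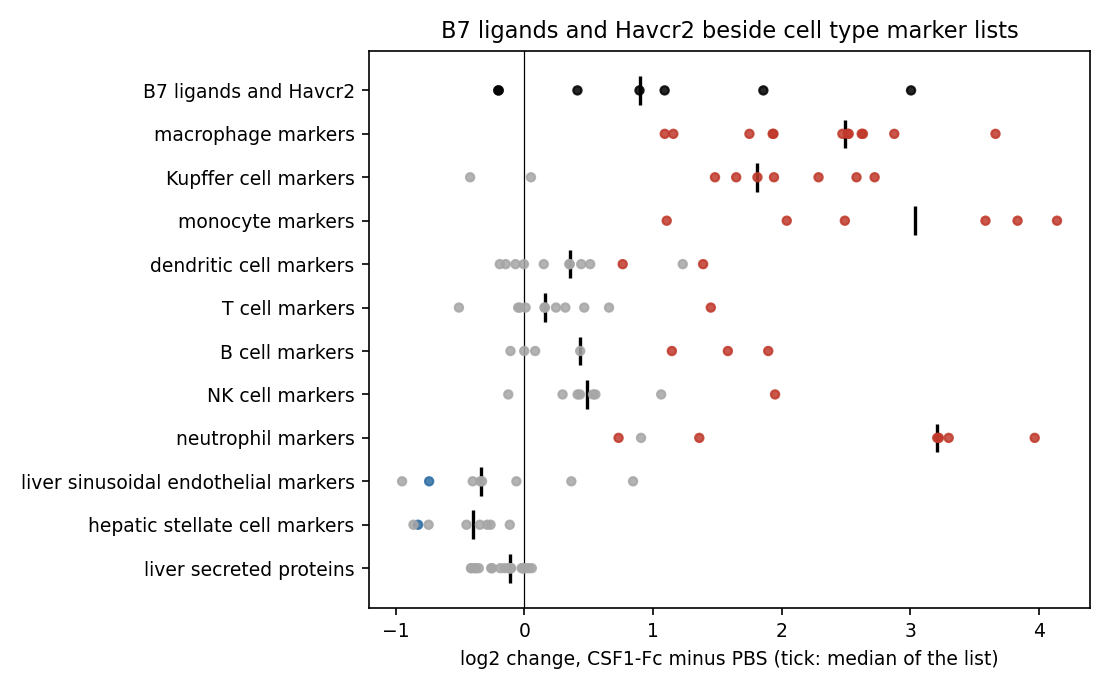
Each point is 1 gene, placed by its log2 change, CSF1-Fc minus PBS; red points were called higher, blue points lower and grey points not at an adjusted p of 0.05, black points are the 7 genes described and vertical ticks are list medians. The macrophage median is 2.49 and that of the 7 genes 0.89.

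Of 10 other B7-related and butyrophilin genes, 2 rose and 8 did not pass, with a median of 0.01. The share of named genes called higher was 8.34%. In both groups 6 of them had a mean log2 under 5. *Vsir* (VISTA), an inhibitory B7 relative of myeloid cells, was at 9.04, 8.46 and 8.34 in CSF1-Fc livers, against 6.53 and 6.16 in PBS livers. It rose by 2.27 (standard error 0.24, limma adjusted p = 0.00257). *Vsig4*, a complement receptor of Kupffer cells that also restrains T cells, rose by 1.65 (standard error 0.16, adjusted p = 0.00157), and is one of the Kupffer cell markers. Both calls ended only with no variance moderation (0.0981 and 0.0588).

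Genes of the TIM family and of HAVCR2 ligands numbered 6, of which 1 rose and 5 did not pass (median -0.18). Over all named genes 8.34% were called higher. *Timd4*, a phosphatidylserine receptor of Kupffer cells, rose by 2.72 (standard error 0.14, limma adjusted p = 0.000357), and is also one of the Kupffer cell markers. The ligand genes *Lgals9*, *Ceacam1* and *Hmgb1* were bright in every liver, with means of 11.40 in CSF1-Fc livers and 11.52 in PBS livers for *Lgals9*. *Hmgb1* has 24 rows and many near-identical copies, so its value is uncertain. *Ceacam1* was at 10.24 in CSF1-Fc livers and 10.92 in PBS livers (change -0.68, adjusted p = 0.0572), and passed in 7 of 15 alternatives.

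Of 20 other checkpoint receptors and ligands, 8 rose, 2 fell and 10 did not pass (median 0.43). Among named genes, 8.34% were called higher and 3.95% lower. The largest rises were those of *Cd48*, the ligand of the receptor 2B4, at 2.74 (standard error 0.18, limma adjusted p = 0.000465), and *Fgl2*, a secreted inhibitor of T cells, at 2.20 (standard error 0.15, adjusted p = 0.000472). *Sirpa*, the CD47 receptor of phagocytes, followed at 1.98 (standard error 0.14, adjusted p = 0.000596), and *Lilrb4a*, an inhibitory receptor of myeloid cells, at 1.90 (standard error 0.15, adjusted p = 0.000848). The other rises were *Pirb* (1.44, adjusted p = 0.00952), *Cd200r1* (1.03, 0.0109), *Btla* (0.86, 0.0441) and *Tnfrsf14* (0.83, 0.011), inhibitory receptors and the ligand of BTLA. *Btla* was dim, with means of 4.75 in CSF1-Fc livers and 3.89 in PBS livers. Its call ended in 6 of 14 alternatives. The falls were *Nectin2*, a ligand of TIGIT, at -0.76 (adjusted p = 0.0341) and *Clec4g*, a LAG3 ligand of sinusoidal endothelium, at -0.74 (adjusted p = 0.0176). The *Nectin2* call ended in 8 of 15 alternatives. Leaving out CSF1-Fc replicate 1, 2 or 3 gave it an adjusted p of 0.119, 0.0715 and 0.0572. *Clec4g* has 2 rows, and with their mean its change was -0.39 and the call ended (adjusted p = 0.0654). Genes of this list named after their values were seen are *Pirb*, *Cd200r1*, *Btla*, *Tnfrsf14*, *Nectin2* and *Clec4g*. *Lilrb4a* and *Pirb* belong to families of near-identical genes, and their values may include relatives. The rises numbered 4 when PBS replicate 1 was left out and 4 when PBS replicate 2 was. The falls numbered 0 when either PBS mouse or the first CSF1-Fc mouse was left out, and 1 when CSF1-Fc replicate 2 or CSF1-Fc replicate 3 was.

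Among 12 genes that regulate B7 ligands, 3 rose and 9 did not pass (median 0.18). For named genes the share called higher was 8.34%. *Ifngr1* and *Ifngr2* encode the receptor of interferon gamma, the main inducer of *Cd274*. *Ifngr1* was at 10.18 ± 0.06 (SD, n = 3) in CSF1-Fc livers and 8.64 ± 0.01 (SD, n = 2) in PBS livers, and rose by 1.54 (standard error 0.12, limma adjusted p = 0.000757). *Ifngr2* rose by 0.80 (standard error 0.19, adjusted p = 0.0495), a call that ended in 7 of 15 alternatives (with 1 mouse left out, adjusted p = 0.305 for PBS replicate 2, 0.0916 for PBS replicate 1, 0.152 for CSF1-Fc replicate 1 and 0.0908 for CSF1-Fc replicate 2). *Ifng* itself was dim, at 4.10 in CSF1-Fc livers and 3.89 in PBS livers, and *Irf1*, a factor through which it acts, was at 0.63 (adjusted p = 0.0961). With the mean of its 2 rows *Irf1* was at 0.34 and with PBS replicate 1 left out at 0.40, and it passed in 3 of 15 alternatives. *Marchf1*, a ubiquitin ligase that removes CD86 from the cell surface, rose by 1.21 (standard error 0.15, adjusted p = 0.00434). *Cd83*, which opposes it, was at 0.16 (adjusted p = 0.598). *Cmtm6*, which keeps PD-L1 on the surface, was at -0.65 (adjusted p = 0.0576), and passed in 6 of 15 alternatives.

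**Figure D4:**
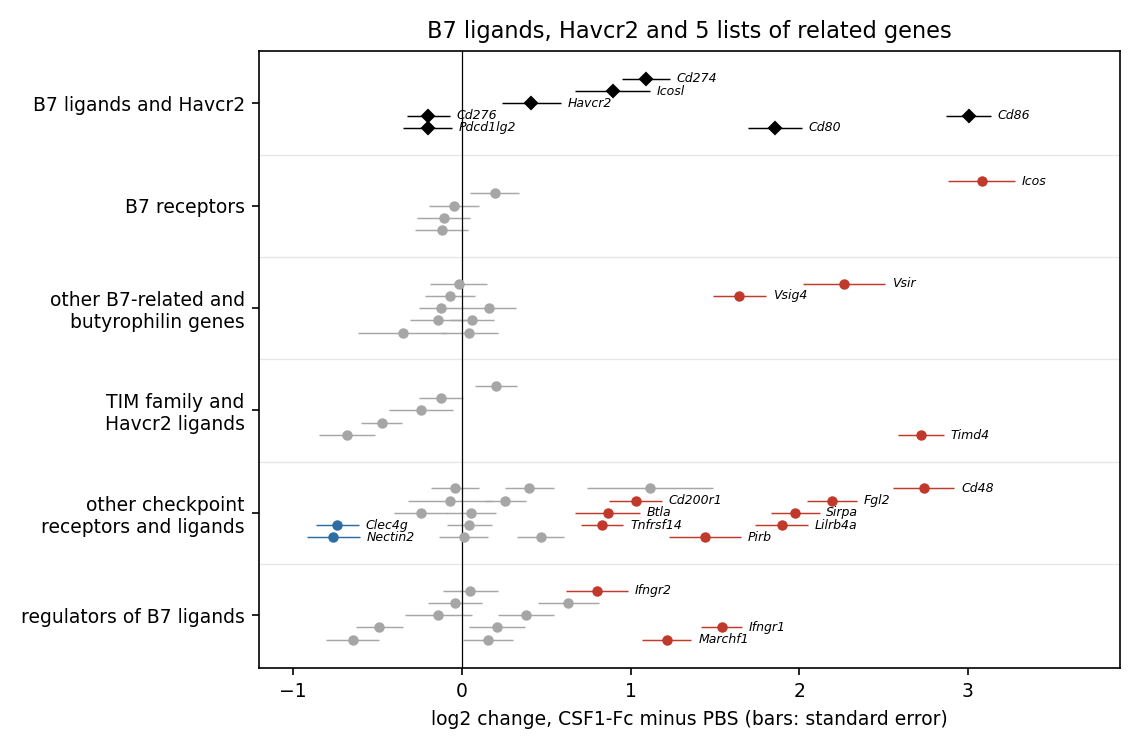
Log2 change, CSF1-Fc minus PBS, with bars of 1 standard error, for the 7 genes (black) and for the 5 lists of related genes, where red was called higher, blue lower and grey not at an adjusted p of 0.05. Over the lists, 15 of 53 genes were higher and 2 lower, and *Icos* at 3.08 has the largest change. Shares among named genes were 8.34% higher and 3.95% lower.

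Genes whose profile over the 5 arrays was nearest to each of the 7 were found by the root mean square difference of mean-centred log2 values, over 10771 genes with a mean log2 of at least 5. The order of arrays within a group counts little here, and the size of the change counts most. Nearest to *Cd86* were *Themis2* (0.038), *Entpd1* (0.046) and *Aurka* (0.066). Nearest to *Cd80* were *Kcnab2* (0.0488), *Arhgef39* (0.0568) and *Cd37* (0.0599), and to *Cd274* they were *Dbnl* (0.033), *Pgm2* (0.0358) and *Ms4a1* (0.0383). *Entpd1*, *Cd37* and *Ms4a1* are genes of leukocytes and *Aurka* is a mitotic kinase. *Icosl* lay nearest to *Arhgap27* (0.0338), *Kif24* (0.0386) and *Agps* (0.0641), and *Havcr2* to *Nfatc2ip* (0.0312), *Cep295* (0.0317) and *Eif2ak4* (0.0411). For *Cd276* they were *Cops2* (0.017), *Rnf14* (0.0171) and *Nudt6* (0.0234), and for *Pdcd1lg2* *Trim25* (0.0175), *Tarsl2* (0.0214) and *Cdv3* (0.024).

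Changes of the genomic neighbours of the 7 genes are given as a description. Of the 12 nearest protein-coding genes with a row, 2 passed the test, where 12.3% of named genes did, and nothing is read from this count. *Plgrkt*, a plasminogen receptor gene beside *Cd274*, was at 7.04 in CSF1-Fc livers and 5.89 in PBS livers and rose by 1.15 (standard error 0.17, limma adjusted p = 0.0089). Its change was near that of *Cd274*, and the call ended when PBS replicate 1 (0.0661) or PBS replicate 2 (0.0847) was left out. *Gatd3a*, beside *Icosl*, fell, with a change of -0.58 (standard error 0.13, adjusted p = 0.0411), and this call ended in 10 of 15 alternatives, each mouse left out included (0.0639 to 0.292). *Ric1*, beside *Pdcd1lg2*, was at -0.22 (adjusted p = 0.428). *Casr* and *Ildr1* beside *Cd86* were at 0.12 and -0.04, and *Pla1a* and *Timmdc1* beside *Cd80* were at -0.42 and -0.22. *Dnmt3l* beside *Icosl*, *Insyn1* and *Nptn* beside *Cd276*, and *Med7* and *BC053393* beside *Havcr2* did not pass either.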

How the data were processed

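Liver RNA of 3 CSF1-Fc and 2 PBS mice was amplified, labelled and hybridized to 1 array each. The authors scanned the arrays, checked them in Affymetrix Expression Console (version 1.1 in the submitters' processing notes) and used Partek Genomics Suite. What the authors deposited is 1 normalized linear intensity per row and array. How dim signals were corrected and arrays scaled was not given in the sources used here, and it bears most on rows near background. Intensities were converted to log2 without a pseudocount and fitted with limma 3.58.1 in R 4.3.3 (1 mean per group, eBayes), with Benjamini-Hochberg adjustment over 35556 rows, 3 residual and 3.34 prior degrees of freedom and a threshold of 0.05. The methods name no test for the arrays. The fit was tested on simulated data in which few rows changed, where it missed most of the smaller changes, so a gene that did not pass may still differ. The labels give separate replicate samples and no sex, litter or cage. The study treated male and female mice, so the groups may differ in their mix of sexes, which was not tested. The p-values set the difference of group means against the spread between these samples, moderated by the variance of all rows. Arrays have no depth, and their number limits the precision.

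Platform annotation gave 1 symbol for 21218 rows, several for 1881 and none for 12457, and 1386 of 18820 genes had several rows. The 7 genes and 16 gene lists, 5 of related genes and 11 of markers, were chosen with earlier results of these data known. Named genes were the 7, in each related list the 4 largest changes past the threshold in the same direction in every mouse, the 3 nearest profiles of each gene and its nearest genes in the RefSeq table (GRCm38.p6). Promoter sequences are from RefSeq, GRCm38.p6. Motifs were chosen after the values were seen. Other named genes were also picked with their values known. Among them are *Cd28*, *Ctla4*, *Pdcd1*, *Ceacam1*, *Cmtm6*, *Irf1*, *Cd83* and the single T cell markers. Some genes of the lists had no row with 1 symbol and were not analysed here. Alternatives were other scalings, filters, row choices, variance models, array weights, the replicate number as a block, a pseudocount of 16, other thresholds and each mouse left out.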

Additional observations from a re-analysis of the deposited data

How the results depend on the processing

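Values here are counts of limma calls or log2 changes, CSF1-Fc minus PBS. Without variance moderation, rows higher and lower numbered 550 and 127 (2052 and 1133 as reported), related genes 6 and 0 (15 and 2) and genes called among the 7 were 1 (3). With array weights there were 3416 rows higher and 3805 lower and 6 related genes lower. Of the 7 genes, 4 were called with array weights, quantile normalization and arrays centred on the median or on liver secreted proteins. The number was also 4 on rows with a mean log2 of at least 5, on rows with 1 gene symbol and with the mean over rows of a gene. Rows lower were 644 (of called rows, 78.8% were higher, against 64.4%) with arrays centred on liver secreted proteins, which moved the median of all rows by 0.155, 1772 on rows with 1 gene symbol and 1709 with the mean over rows of a gene, where fewer rows were tested. At an adjusted p under 0.01 there were 1255 and 177, and at an unadjusted p under 0.05 3737 and 4564. Related genes lower numbered 5 with quantile normalization, 4 with arrays centred on the median, 0 with arrays centred on secreted proteins, 4 on rows with a mean log2 of at least 5, 6 on rows with 1 symbol, 5 with the mean over rows and 6 at an unadjusted p under 0.05. Leaving out each mouse gave 1079 to 2053 rows higher, 134 to 1768 lower, 10 to 15 related genes higher, 0 to 2 lower and 2 to 4 of the 7 called. The median change of the 7 genes, 0.89, was 1.05 with arrays centred on secreted proteins, 1.09 on rows with a mean log2 of at least 5, which drops *Pdcd1lg2* and *Havcr2*, 0.62 as log2 of the value plus 16 and 0.75 to 1.09 with each mouse left out. No alternative turned the direction of any of the 7.

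The numbers 1 and 2 that the groups share in the labels mark no shared animal. Deviations from the group means correlated at -0.07 for replicate 1 and at -0.25 for replicate 2. With only 2 PBS arrays their deviations mirror each other, so the crossed pairs gave 0.07 and 0.25. These values cannot tell whether the number marks a shared batch. With the replicate block the median change was 0.75 and 12 related genes were higher and 0 lower, on 1 residual degree of freedom. Signs turned, with no call, for *Cd28* (0.048 centred on secreted proteins, 0.044 with array weights), *Ctla4* (0.034 and 0.037) and *Pdcd1* (0.11 centred on secreted proteins, 0.040 with quantile normalization, 0.039 with the replicate block, and -0.13 to 0.039 with each mouse left out, positive without CSF1-Fc replicate 3). Dim rows limit what can be said of *Pdcd1lg2*, *Havcr2* and *Icosl*. Where a cause of these shifts is not given by fewer rows or mice, it was not tested.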
